A study of Mus musculus with 4 samples.

Results

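Sites of open chromatin were taken from ATAC-seq of NMuMG cells, a mouse mammary gland epithelial cell line, that had been starved of growth factors and sampled 10 min after treatment. The 10 min experiment has 2 samples, vehicle and TGFβ at 5 ng/ml, both taken after 6 h without serum and insulin. Vehicle was the hydrochloric acid and albumin solution in which TGFβ1 was dissolved. The 2 samples name a single peak list, so no contrast between vehicle and TGFβ was possible at 10 min. Which of both libraries its peaks were called from was not settled. For the TGFβ sample, 1 label field gives 2 h in place of 10 min, and the title was followed. The list was set against the union of the 2 lists made from cells in complete medium, with vehicle or with TGFβ at 5 ng/ml for 2 h. The starved and the complete-medium experiments differ in medium, time and libraries, and these cannot be told apart. All cells are of 1 line, and each of the 4 groups has 1 sample.

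The members are the intervals of the 10 min list that were at least 150 bp wide, with neighbours less than 1000 bp apart merged into 1 region. Of 29837 intervals, 959 (3.21%) were narrower and were dropped. This left 26732 regions, against 39585 in the 2 h union refined in the same way and 42559 when all 3 lists were pooled. The 10 min regions were 544 bp wide at the median, with quartiles of 353 and 789 bp, and covered 16.4 Mb, or 0.642% of the known bases of the mm9 genome. A list has 1 line for each summit, the point of highest signal inside a peak, so summits per region could be counted. Each line carries a score from 540 to a cap of 1000, which ranks how reproducible a peak is. Intervals in the text are 95% Wilson intervals, or Newcombe intervals for differences. They cover the counting of regions only, and neighbouring regions are not independent. The lists give no read counts. The methods of the study list sequenced reads for each library, by which both 10 min libraries were shallower than those of complete medium, but these totals were not analysed here.

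In ATAC-seq the Tn5 transposase cuts DNA that nucleosomes leave free, which marks promoters, enhancers and insulators. Promoters rich in CpG dinucleotides, typical of housekeeping genes, are open in most cell types. Distal sites are more particular to a cell type. In epithelial cells AP-1, a dimer of JUN, FOS and related proteins, is a common distal factor. CTCF marks insulators and the anchors of chromatin loops. SMAD proteins carry the TGFβ signal to DNA, and TGFβ can turn NMuMG cells from an epithelial to a mesenchymal state.

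Sequences that stand for the distal classes described further on are shown first, on the plus strand of mm9. Capitals mark the consensus match. Each stretch holds the 101 bases around the centre of a region with 1 summit that lies in an intron or between genes. They were chosen, after motif shares were seen, as the highest-scoring regions with a match within 50 bp of the centre. The first pair has a CTCF match and overlaps no region of the 2 h union. CTCF example 1 is chr3:89112164-89112264, between genes and 5714 bp from the nearest transcription start site (TSS), with a score of 867. CTCF example 2 is chr1:157128765-157128865, in an intron and 27849 bp from a TSS of Xpr1, with a score of 855. The second pair has an AP-1 match and overlaps both 2 h lists. AP-1 example 1 is chr7:137951444-137951544 and AP-1 example 2 is chr19:38675778-38675878, in introns, both at the score cap. Their nearest TSSs lie 26085 bp and 76766 bp away, the latter that of Plce1.
CTCF example 1: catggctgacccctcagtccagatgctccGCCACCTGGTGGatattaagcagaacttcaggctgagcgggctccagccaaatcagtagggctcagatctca
CTCF example 2: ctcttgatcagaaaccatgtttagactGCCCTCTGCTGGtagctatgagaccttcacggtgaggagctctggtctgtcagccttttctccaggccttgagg
AP-1 example 1: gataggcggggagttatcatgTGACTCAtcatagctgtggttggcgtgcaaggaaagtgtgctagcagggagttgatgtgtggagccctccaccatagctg
AP-1 example 2: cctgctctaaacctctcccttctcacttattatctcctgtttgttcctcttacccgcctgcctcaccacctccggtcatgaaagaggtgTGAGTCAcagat

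The 150 bases before the first TSS of 4 genes show the range of promoter sequence, with every CG in capitals and each gene read on its own strand. Tob1, which encodes an antiproliferative factor, and Ulk1, which encodes the kinase that starts autophagy, had wide open promoters at 10 min. Csn2, which encodes the milk protein β-casein, and Alb, which encodes serum albumin made in liver, had no region within 1000 bp of a TSS. The stretches are chr11:94072618-94072767 for Tob1 (plus strand), chr5:111239117-111239266 for Ulk1 (minus strand), chr5:88128447-88128596 for Csn2 (minus strand) and chr5:90889765-90889914 for Alb (plus strand). They hold 23, 14, 2 and 3 CG dinucleotides, respectively.
Tob1: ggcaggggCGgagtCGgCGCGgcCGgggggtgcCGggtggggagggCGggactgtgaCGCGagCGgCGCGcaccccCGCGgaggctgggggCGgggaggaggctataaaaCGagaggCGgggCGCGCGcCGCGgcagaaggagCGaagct
Ulk1: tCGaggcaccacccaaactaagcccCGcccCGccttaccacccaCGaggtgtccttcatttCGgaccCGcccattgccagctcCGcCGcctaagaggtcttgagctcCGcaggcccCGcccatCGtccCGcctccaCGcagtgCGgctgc
Csn2: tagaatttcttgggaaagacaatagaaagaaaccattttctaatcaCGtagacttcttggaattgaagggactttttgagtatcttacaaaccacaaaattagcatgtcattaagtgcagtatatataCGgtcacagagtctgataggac
Alb: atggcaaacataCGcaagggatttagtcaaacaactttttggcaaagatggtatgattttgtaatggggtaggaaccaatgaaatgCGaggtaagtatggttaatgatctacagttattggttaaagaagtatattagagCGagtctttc

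Promoters made up the largest annotated class of the 10 min landscape relative to their share of the genome. A region was counted at a TSS when it came within 1000 bp of the TSS of any annotated transcript, and as distal otherwise. Of the 26732 regions, 10273 were at a TSS (38.4%, interval 37.8 to 39.0) and 16459 were distal. By the position of the region centre, 37.7% lay in a TSS window, which takes 4.15% of the genome. Introns held 28.1% of the centres against 35.8% of the genome, and intergenic sequence 32.4% against 57.7%. Exons outside TSS windows held few, with 0.868% in 3′ UTRs, 0.509% in coding exons, 0.404% in non-coding exons and 0.0711% in 5′ UTRs.

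The 2 h union had a smaller promoter share of 28.1% (27.7 to 28.6), so that the 10 min list was 10.3 percentage points higher (9.59 to 11.1). The direction of this difference depended on which 2 h list was used. The TGFβ list had 28.4% of its 38532 regions at a TSS, while the vehicle list had 44.9% (44.2 to 45.6) of its 19648 regions there. Against the vehicle list the 10 min share was therefore lower, with a difference of -6.44 points. Cuts that kept the highest-scoring regions, and so changed length and score together, moved the difference. When the union was cut to its 26732 highest-scoring regions, 36.1% were at a TSS and the difference fell to 2.34 points. When the 10 min list was cut to the length of the vehicle list it had 47.2% at a TSS, 2.30 points above that list. With scores at or above the median of each list the difference to the union was 18.9 points. Length and score were not varied apart, and the part of either in the difference was not tested.

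**Figure D1:**
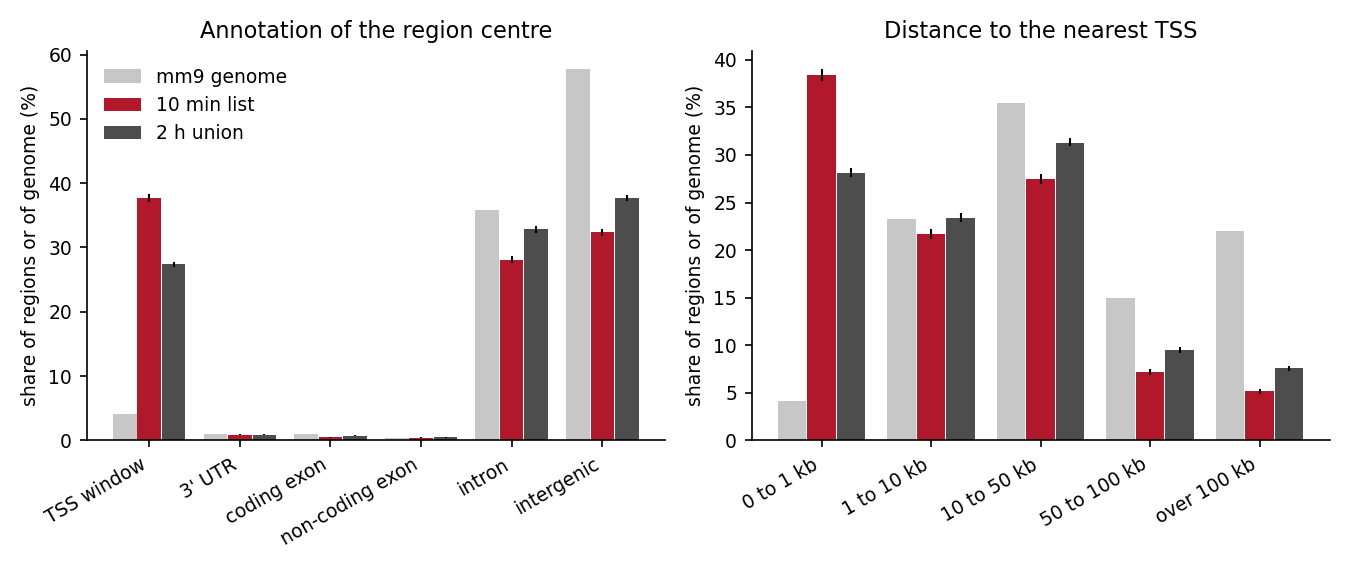
Shares of the 26732 regions of the 10 min list (red) and the 39585 regions of the 2 h union (dark grey), in percent, by the annotation of the region centre (left) and by distance to the nearest TSS (right), beside the share of the mm9 genome (light grey). Error bars are 95% Wilson intervals. TSS windows held 37.7% of 10 min regions and 4.15% of the genome. The class with the fewest regions, 5′ UTRs, is not drawn.

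Beyond promoters, the distal regions stayed near genes. Their median distance to the nearest TSS was 16640 bp (quartiles 6744 and 40522), against 18808 bp in the 2 h union. Of all 10 min regions, 21.7% lay 1 to 10 kb from a TSS, 27.5% at 10 to 50 kb, 7.23% at 50 to 100 kb and 5.14% over 100 kb away. The genome has 23.3%, 35.5%, 15.0% and 22.0% of its bases at these distances, respectively. Each distance thus held a smaller share of regions than of bases, most clearly over 100 kb. The shares were taken over all regions, of which 38.4% were at a TSS, so they do not give the spread of distal regions alone. Of the 16459 distal regions, 5809 lay at 1 to 10 kb, 7345 at 10 to 50 kb, 1932 at 50 to 100 kb and 1373 over 100 kb. Remote and near regions had similar numbers of summits. The mean was 2.19 summits per region at 1 to 10 kb and 2.16 over 100 kb, and 14.2% and 15.1% reached the score cap. The share that overlapped the 2 h union was 80.7% (79.6 to 81.7) at 1 to 10 kb and 86.5% (84.5 to 88.2) over 100 kb.

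Centres of regions at a TSS lay close to it. Where a region covered several TSSs, the one nearest its centre was used, a choice that shortens the distances. The median signed distance from TSS to centre was 1 bp (quartiles -87 and 92), and 49.4% (48.5 to 50.4) of the centres lay upstream. In 17.8% of promoter regions (17.1 to 18.6) the windows held TSSs on both strands. These shared promoters were wider than the rest, with a median of 852 bp against 742 bp, and had a mean of 4.25 against 3.65 summits. Regions were spread unevenly over chromosomes, from 3.65 per Mb on X to 17.6 per Mb on chromosome 19. On X 50.4% (46.4 to 54.4) of the regions were at a TSS, against 30.2% (27.8 to 32.7) on chromosome 15.

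At 10 min 10339 of 22350 protein-coding genes had an open promoter, that is a region within 1000 bp of any of their TSSs (46.3%, interval 45.6 to 46.9), against 48.2% in the 2 h union. Of these, 10037 were open in both, which is 97.1% of the 10 min set and 93.1% of the 2 h set. Long intergenic non-coding RNA genes were open nearly as often, at 44.0% (41.3 to 46.7). Other classes were open less often, with 14.5% of processed transcripts, 6.15% of miRNA genes and 2.30% of pseudogenes. A promoter without a region is one where no peak passed the threshold, and not proof of closed chromatin.

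Open promoters followed CpG content. The ratio of observed to expected CpG was computed over 500 bp on each side of the first TSS of each gene. Throughout this comparison a gene counted as open only when a region came within 1000 bp of that first TSS. Of genes with a ratio under 0.25, 4.56% were open (4.06 to 5.11), and the share went up to 18.2%, 63.9% and 80.6% (79.6 to 81.5) in the next bins, split at 0.5 and 0.75. Summits followed the same order, with a mean of 2.71 per open promoter in the lowest bin and 4.34 in the highest. The median ratio was 0.758 for genes open in both lists, 0.585 for those open at 10 min only, 0.531 for those open in the 2 h union only and 0.261 for those open in neither. The promoters found in 1 list thus lay between the common ones and the rest.

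Gene lists were read against the background of 46.3%. Summits of a gene were counted over all its promoter regions. A region can count through the TSS of any transcript and so lie inside the gene. This was so at Krt19, Gata3, Runx1, Zeb2, Cdkn1a and Pparg, for example, where it lay more than 1000 bp from the first TSS. The label of the cells was checked first. Of the keratin genes of simple epithelia, Krt8 had 5 summits in a region of 1663 bp, Krt19 had 5 summits and Krt18 had 3, while Krt7 and Krt20 had no promoter region in any list. Krt80 had 4 summits. The other 5 of 11 keratins listed, among them the basal Krt5 and Krt14, had none. Cdh1, which encodes E-cadherin, had a single narrow region of 387 bp with 1 summit and a score of 832. Epcam, another defining epithelial gene, had no promoter region in any of the 3 lists. Of 26 junction genes, 15 were open (57.7%, interval 38.9 to 74.5). They included the tight junction genes Tjp1, with 7 summits, and Ocln, with 4, the adhesion receptor gene Cxadr, with 6, and Ctnna1, which encodes α-catenin, with 5, while Cldn3, Cldn7 and Dsg2 were without a region. Cldn4, Dsp, Pkp1 and Pkp3 were open in the 2 h union only. Against the background of all genes, open promoters thus did not set these lists apart. Of 11 keratins 4 were open (36.4%, interval 15.2 to 64.6), and the intervals of both lists include the background. The keratins had a median CpG ratio of 0.291. Of all genes with a ratio of 0.25 to 0.5, 18.2% were open at their first TSS, a share inside the keratin interval as well.

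Genes that define mammary epithelium were open in part. Of 22 factors, 11 had an open promoter, close to the background share. Elf3, Foxa1, Sox9 and the splicing regulator gene Esrp2 had 5 summits each, and Gata3, Runx1 and Klf5 had 4 each. The basal factor gene Trp63 and the luminal receptor gene Esr1 had none, and Ovol2 and Ehf were open in the TGFβ list at 2 h only. All 5 milk protein genes listed, Csn1s1, Csn2, Csn3, Wap and Lalba, lacked a promoter region and had no distal region nearest to them. Their median CpG ratio was 0.173, and of all genes with a ratio under 0.25 only 4.56% were open at their first TSS.

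Markers of other cell types were mostly without a region. None of 8 endothelial, 10 immune, 8 neuronal and 4 pluripotency genes listed was open. At these list sizes a count of 0 allows shares of up to 32.4%, 27.8%, 32.4% and 49.0%, respectively (upper Wilson bounds). The median CpG ratios of these lists were 0.305, 0.204, 0.537 and 0.389. Of all genes, 4.56% were open at their first TSS with a ratio under 0.25, 18.2% at 0.25 to 0.5 and 63.9% at 0.5 to 0.75. In the 2 h union Kdr, Cd68, Snap25, Dppa3 and the adipocyte gene Cidec were open, all in the TGFβ list alone. Among 6 adipocyte genes Pparg alone was open, with 1 summit. Among 7 muscle genes Actn3 alone was open, with 2 summits, and among 8 hepatocyte genes Hnf4a alone, with 3 summits at the score cap. Of 23 fibroblast and mesenchymal genes 8 were open (34.8%). They included Cdh2 (8 summits), Fn1 (6) and Vim (5), which encode N-cadherin, fibronectin and vimentin, and S100a4 (5). Sparc was open in the 2 h vehicle list only. Smooth muscle Acta2 and the receptor genes Pdgfra and Pdgfrb were not open. Promoters of Cdh2, Fn1 and Vim were also open in each 2 h list.

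Genes of the TGFβ pathway mostly had open promoters. Of 13 ligand and receptor genes, 12 had an open promoter (92.3%, interval 66.7 to 98.6), against 46.3% of all protein-coding genes, and the same number was open in the 2 h union. The median CpG ratio of this list was 0.817. Of all genes with a ratio of 0.75 or more 80.6% were open, a share inside the interval of the list. That share counts the first TSS only, while the list counts any TSS. The receptor gene Tgfbr2 had 8 summits in a region of 1301 bp. Among the other receptor genes, Bmpr2 had 6 summits, Acvr2b 5 and Tgfbr1 3. The ligand genes Tgfb1, Tgfb2 and Tgfb3 had 8, 3 and 1 summits. The co-receptor gene Tgfbr3 had no region. All 15 genes of Smads and their regulators were open, each also in both 2 h lists. Among the signal carriers, Smad2 had 7 summits, Smad4 had 4, and Smad3 had 3 in 2 regions with 11 distal regions nearest to it. Among the inhibitors, Smad7 and Skil had 8 summits each and the co-repressor gene Tgif1 had 9.

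Genes that respond to TGFβ were mostly open in the 10 min list. Of 22 early targets, 19 had an open promoter (86.4%, interval 66.7 to 95.3), against 17 in the 2 h union and 46.3% of all protein-coding genes at 10 min. The median CpG ratio of this list was 0.673. Of all genes with a ratio of 0.5 to 0.75, 63.9% were open at their first TSS, while the list counts any TSS. Lists of cell cycle and ribosomal protein genes had shares of 83.3% and 88.8%. Bhlhe40, a transcriptional repressor gene, had 9 summits in a region of 2662 bp, Ier3, an immediate early gene, had 7, and the Cdk inhibitor gene Cdkn1a had 5. Tgfbi, Itgb6 and Wnt11 had no promoter region, although 7 distal regions lay nearest to Itgb6. Mmp9 and Ltbp2 were open in the 10 min list and in neither 2 h list, with scores of 554 and 579 near the lower limit of 540. The region of Mmp9, chr2:164778662-164779021, lay inside the gene, whose first TSS is at 164766280. It counts through the TSS of another transcript. Of 14 transcription factor genes of the epithelial to mesenchymal transition, 11 were open (78.6%). Hmga2 had 10 summits, Zeb2, Snai3 and Foxq1 6 each, Zeb1 5, Snai1 3 and Snai2 2, while Twist1, Prrx1 and Foxc2 had no region.

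AP-1 and immediate early genes, the first to answer growth factors, mostly had open promoters, and the region of Junb was among the widest. Of 22 AP-1 family genes, 18 were open (81.8%), and of 24 immediate early and MAPK feedback genes 23 (95.8%, interval 79.8 to 99.3). The exception in the latter was Egr3, which was open in the TGFβ list at 2 h. Junb had 11 summits in a region of 3115 bp, Mafg had 9 in 2 regions, and Atf1 and Atf2 had 8 each. Jund had 7, Fosl2 6, Fosl1 and Atf3 5, Jun and Fos 4 each, and Fosb 2 in a region of 531 bp. Atf4, Atf7, Batf and Batf3 had no region. The feedback genes Spry2 and Spred2, which encode inhibitors of the Ras pathway, had 9 and 8 summits, and Dusp4, a MAPK phosphatase gene, had 7. The list of immediate early genes holds Junb, Fos, Fosb, Jun and Atf3 of the AP-1 list as well. Of 23 ETS family genes 15 were open (65.2%), with 15 summits in 2 regions at Elf2, 10 at Elf1, 9 at Gabpa and 6 at Erf. Etv4 and Ehf were open in the 2 h union only.

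Genes of the insulin and starvation response were open in 22 of 24 cases (91.7%, interval 74.2 to 97.7), and the same number was open in the 2 h union. Ulk1 had 10 summits in a region of 2558 bp. Insig1, which holds back sterol synthesis, had 9, as had Sesn1 and the sterol factor gene Srebf1, and the receptor gene Igf1r had 8. The insulin receptor gene Insr had 2 summits, and the forkhead factor genes Foxo1 and Foxo3 had 5 each. Cited2, a transcriptional co-regulator gene, had 19 distal regions nearest to it. Ddit4 and Klf15 were not open at 10 min or at 2 h. Of 18 cell cycle genes 15 were open (83.3%), with 7 summits at Mki67, 6 at Ccne1 and Cdk1 and 5 at Mcm7, and Pcna, Mcm4 and Cdk6 were without a region. All 16 housekeeping genes listed were open, with 10 summits at Gapdh, 8 at Ywhaz, 7 at Polr2a and 6 at Actb. The median CpG ratios in the lists of Smad, EMT factor, AP-1, immediate early, starvation response and cell cycle genes lay between 0.776 and 0.957. In that bin 80.6% of all genes were open at their first TSS. The lists count any TSS, so their shares are not measured alike. No list was compared with genes of like CpG content beyond such shares.

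Large gene families spanned the whole range of shares. Of 80 ribosomal protein genes and paralogs, 71 were open (88.8%, interval 80.0 to 94.0), and of 67 replication-dependent histone genes 43 (64.2%). Rpl24 had 10 summits, Rpl10a and Rpl7 7 each and Rpl19 6. The histone genes Hist1h1e and Hist1h2be share 1 region with 9 summits, Hist1h4j had 8 and Hist1h1a 6, while Hist1h1c was open in the 2 h union only. Of 26 integrin subunits 12 were open (46.2%, the background share), with Itga3 and Itga2b at 7 summits and Itga6 and Itgb1, the latter the common β chain, at 5, while Itgb4 and Itgb6 had none. Of 11 laminin chains 4 were open, with 10 summits at Lamc1, 6 at Lamb2 and 2 at Lamb3. Collagen genes were open in 6 of 43 cases (14.0%), with 65 distal regions nearest to them. Col18a1 had 7 summits, Col4a1 and Col4a2 share 1 region with 6, and Col1a1 had 4, while Col12a1, Col27a1 and Col6a3 were open in the 2 h union only. Hox genes, which pattern the body axis, were open in 3 of 39 cases (7.69%). Of 1087 olfactory receptor genes 1 was open (0.0920%). Receptor genes of this kind have few CpGs, with a median ratio of 0.135.

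**Figure D2:**
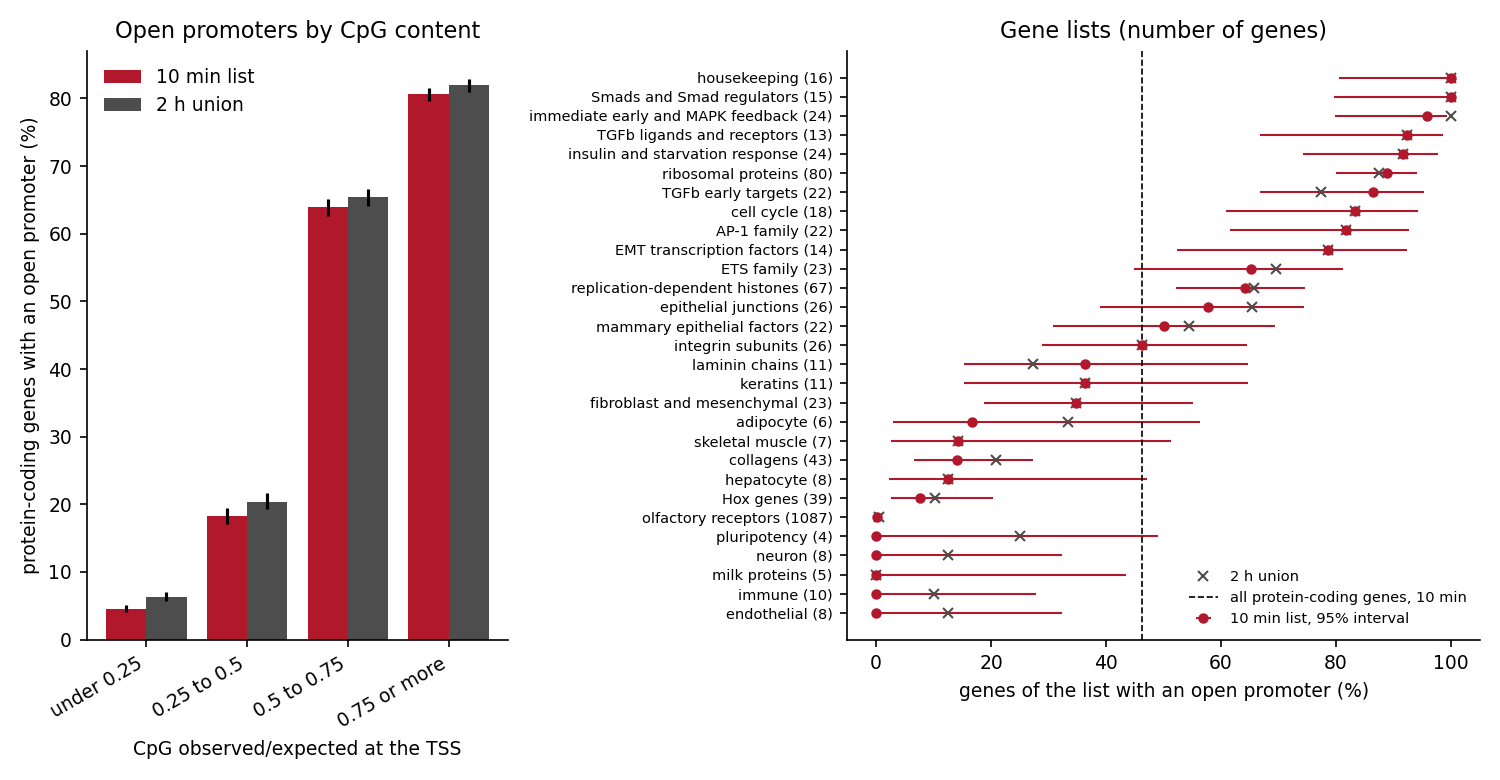
Share of protein-coding genes with an open promoter, in percent, by the observed to expected CpG ratio at the first TSS (left, bars with 95% Wilson intervals) and by gene list (right, red points with 95% Wilson intervals for the 10 min list, crosses for the 2 h union). The dashed line is the share of all protein-coding genes at 10 min, 46.3%. Bars on the left count regions at the first TSS only, and the right panel counts those at any TSS. Lists of housekeeping, Smad and immediate early genes lie above 95%, and endothelial, immune, milk protein and neuronal lists lie at 0.

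A small number of promoters was found at 10 min only. There were 302 such genes, against 745 open in the 2 h union only. At 281 of the 302 the promoter region overlapped no 2 h region at all, and at 21 it did, so that the 2 h region ended outside the TSS window. These 21 include Rpl30-ps6 (10 summits), Kctd3 (7), Dmpk (5), Gm20479 (3) and Psmb10 (2), which the order by score and summits puts high. In the other direction 725 of 745 had no 10 min region at the same place. The promoters of the 281 genes were narrow, with a median of 387 bp, and 5 reached the score cap: Shmt2, Melk, Ddx19a, A930016O22Rik and Fam65c. Shmt2, which encodes a mitochondrial enzyme of serine metabolism, had 4 summits in chr10:126959043-126959638, over its TSS. Melk, a mitotic kinase gene, had 2 summits in chr4:44313560-44314274.

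Promoters of the 2 h union that the 10 min list lacked seldom reached the score cap either. Of the 725, 67 reached the cap, and 53.1% had 1 summit. Dhrs3, a retinoid reductase gene, had 9 summits at chr4:144481352-144482826 and was open in both 2 h lists. Arhgef40 and D630042F21Rik had 6 each and were open in the TGFβ list alone. At Peg3, Srgap3, Gm14221, Ttc15, Gc, Klf1 and Adcy6 a 10 min region overlapped the 2 h region but did not reach the TSS window, so these differ at the window and not at the site. In the gene lists, Cdh1, Marveld2, Elf5, Tagln, Mmp9, Ltbp2, Rpl17 and Lama5 were open at 10 min only. None of their regions overlapped a 2 h region, and their scores lay between 554 for Mmp9 and 846 for Rpl17. As at Mmp9, the region of Elf5 (chr2:103286030-103286202) lay inside the gene, away from its first TSS at 103251845.

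Distal regions gathered at a limited set of genes. The 22350 protein-coding genes had a mean of 0.736 distal regions for which they were nearest. Of these genes, 34.1% had at least 1 and 3.12% had 5 or more. Genes with an open promoter had a mean of 1.02 and those without 0.494. Pde4d, a cyclic AMP phosphodiesterase gene at chr13:109240142-110743669, had the most with 21, and 18 of these were in the 2 h union. Cited2 had 19, and Jmjd1c, the oncogene Myc and Lpp, which encodes a focal adhesion protein, had 16 each. Rnd3, Tbl1xr1, Maml3, Ank3 and 2010111I01Rik had 15 each. Between 0 and 3 of the regions of each of these 10 genes were absent from the 2 h union, in which the same genes had 19 to 35. A long gene or a wide gap between genes offers more room for regions, and the counts were not adjusted for it.

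Most regions had several summits. Of all 10 min regions, 76.1% (75.6 to 76.7) had at least 2, with a mean of 2.80. At a TSS 92.2% had at least 2 and the mean was 3.75, against 66.1% and 2.20 in distal regions. Width and summits went together, at 220 bp per summit. This spacing was close to the 211 bp of the vehicle list and the 226 bp of the TGFβ list. The 10 min list had more summits per region than either 2 h list. Regions with 1 summit made up 23.9% at 10 min, 28.1% in the vehicle list and 40.0% in the TGFβ list. The union itself pools the lines of 2 lists and was not used for summits.

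The same held within matched regions. At 16480 places, 1 region of the 10 min list corresponded to exactly 1 region of each 2 h list. Their median width was 674 bp at 10 min, 466 bp with vehicle and 569 bp with TGFβ at 2 h. The 10 min region was the wider one in 82.3% of the pairs with vehicle (81.7 to 82.9) and in 68.7% of those with TGFβ (68.0 to 69.4). Mean summits were 3.31, 2.54 and 2.83, respectively. The gap in median width was larger at a TSS, where the regions measured 811, 577 and 677 bp, than in distal places, where they measured 545, 392 and 479 bp. The 10 min libraries were the shallower ones by the study's read totals, and the part of depth in these widths was not tested.

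**Figure D3:**
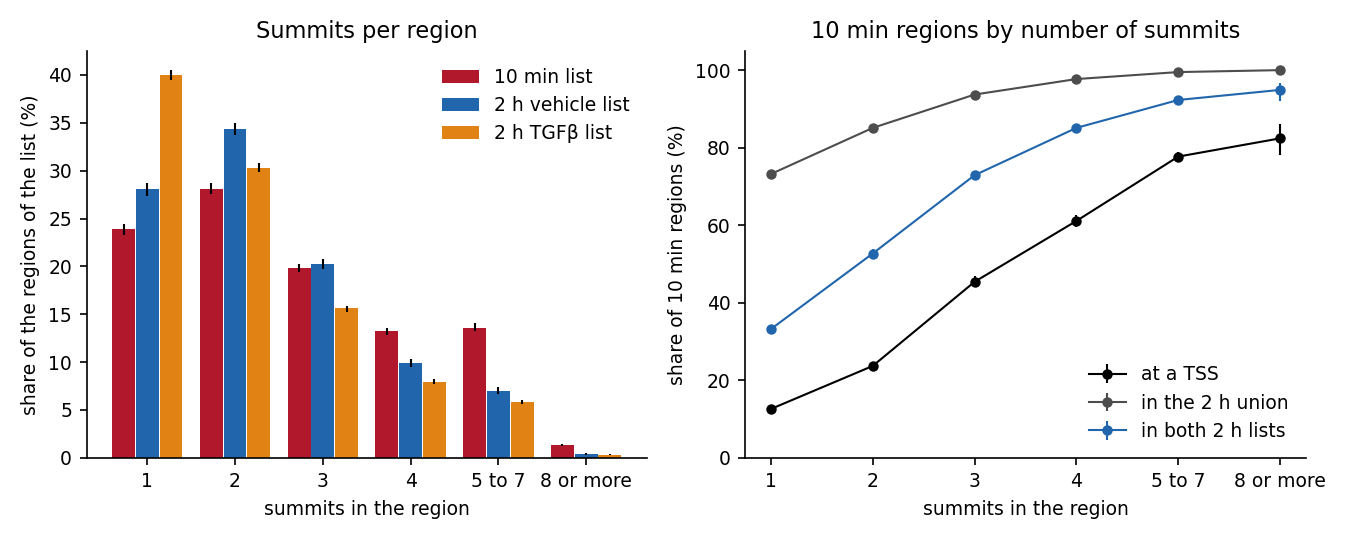
Number of summits per region as a share of the regions of each list, in percent (left), for the 10 min list (red), the 2 h vehicle list (blue) and the 2 h TGFβ list (orange). The right panel gives, by number of summits, the share of 10 min regions at a TSS (black), in the 2 h union (grey) and in both 2 h lists (blue), all with 95% Wilson intervals. Overlap with the union went from 73.2% at 1 summit to 100% at 8 or more.

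Regions with the most summits lay at promoters, with 1 exception among the first 5. A group of 4 regions had 12 summits. One covered the TSS of 8430427H17Rik (chr2:153269497-153272162), one that of RP24-341K21.6 (chr10:126725670-126728309) and one that of Tob1 (chr11:94071101-94073454). The region on chromosome 10 also overlapped the genes Mbd6 and Ddit3, the latter encoding a stress factor of the C/EBP family. The remaining one was distal, between genes and 3767 bp from the TSS of Aurkb (chr11:68853485-68855382), and held none of the AP-1, CTCF, RUNX or TEAD matches searched. Junb followed with 11 at chr8:87502163-87505277, between genes by its centre and reaching over the TSS. The widest region measured 3534 bp, at chr15:101845373-101848906, with 10 summits and 4 AP-1 matches. It lay between genes, 9741 bp from the TSS of the keratin gene Krt18. The next widest covered TSSs of Zfp367 (3389 bp), the growth factor gene Pdgfb (3286 bp) and 1700125G22Rik (3154 bp), the last also overlapping the gene Ect2. All of these overlapped both 2 h lists, except that of Pdgfb, which overlapped 1.

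Most of the 10 min landscape was also found in complete medium. Of the 26732 regions, 87.8% (87.4 to 88.2) overlapped the 2 h union by at least 1 bp, and 62.3% overlapped both 2 h lists. At a TSS 95.5% overlapped the union and in distal sequence 83.0%. Introns and intergenic sequence differed little, at 83.4% and 83.0%. In the other direction 59.3% of the 39585 union regions were found at 10 min, with 88.3% of those at a TSS and 48.0% of distal ones. Distal regions thus overlapped less often than those at a TSS in both directions. The 10 min list holds 16459 distal regions and the union 28457, which limits the share in the reverse direction. At a TSS the numbers were closer, at 10273 and 11128.

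Shared and unshared regions differed in width, summits and score. The 3262 regions that the union lacked, 461 at a TSS and 2801 distal, had a median width of 270 bp against 591 bp for shared ones. They had a mean of 1.65 summits against 2.96. Of the unshared regions 0.337% reached the score cap, against 34.0% of the shared. The share in the union increased with each step in summits, from 73.2% at 1 summit over 85.1% at 2 and 93.7% at 3 to all 353 regions with 8 or more.

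The sequence of distal regions was searched for the consensus of 12 factors on both strands, within 200 bp of the region centre. AP-1 (TGACTCA or TGAGTCA) matched 39.7% of distal 10 min regions (38.9 to 40.4), against 6.85% of the same windows moved by 10 kb. CTCF, searched by its core consensus, matched 6.77% (6.40 to 7.17) against 0.310%. RUNX (TGTGGTT) matched 16.4% against 9.92% and TEAD (CATTCCA) 9.42% against 6.45%. The SMAD motif (CAGACA or GTCTAGAC) matched 34.9%, close to the 34.4% of moved windows, and the grainyhead-like motif (AACCGGTT or AACCTGTT) 1.61% against 1.52%. At least 1 match to AP-1, TEAD, grainyhead-like, RUNX or CTCF was found in 60.1% of distal regions and in 23.0% of moved windows. Moved windows had a mean GC content of 44.6% and distal regions 47.7%. A match describes the letters and says nothing of binding.

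Matches to AP-1 and CTCF sat at the centre of the regions. In distal regions with 1 summit, AP-1 matches were 16.1 times as dense within 50 bp of the centre as 400 to 500 bp away, and CTCF matches 134 times, the latter over 6 outer matches. RUNX matches were 3.04 times and TEAD matches 1.97 times as dense at the centre. SMAD matches were not concentrated there, with a ratio of 0.881, and neither were grainyhead-like matches, with 0.612 over 15 central matches. The examples printed above show both kinds of central match.

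**Figure D4:**
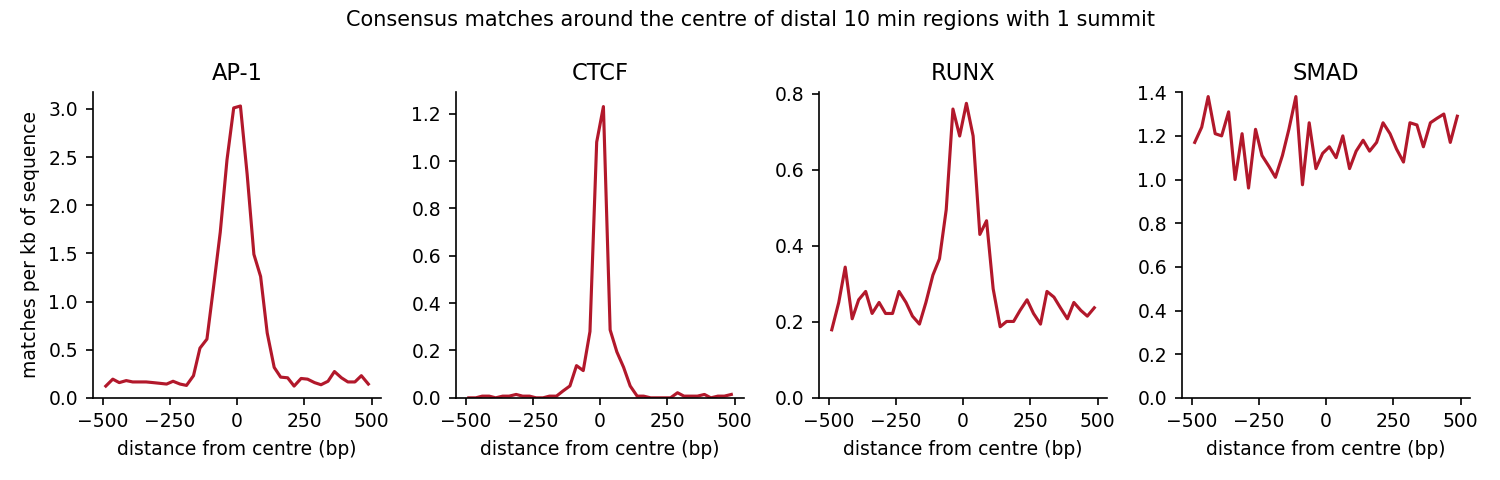
Density of consensus matches (per kb of sequence, in bins of 25 bp) against the distance from the centre (bp) of the 5576 distal 10 min regions with 1 summit, for AP-1, CTCF, RUNX and SMAD. Each vertical axis starts at 0 and has its own scale. AP-1, CTCF and RUNX matches peak at the centre, and SMAD matches are flat.

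AP-1 and CTCF marked different distal regions. Of the regions with an AP-1 match, 1.87% (1.57 to 2.23) also had a CTCF match, against 10.0% (9.43 to 10.6) of those without. CTCF matches within 200 bp of the centre were found more often in regions with few summits, in 8.93% of those with 1 and 1.38% of those with 4 or more. AP-1 was in 39.5% and 33.1%, respectively. Over all 10 min regions the median width was 277 bp at 1 summit and 795 bp at 4. The window thus leaves out part of the wider regions, and its part in these shares was not tested. With distance from the TSS the motifs went in opposite directions. AP-1 matched 35.5% at 1 to 10 kb and 48.3% over 100 kb, and CTCF 8.37% and 3.28%. With the score they did so as well. AP-1 matched 34.0% of distal regions with a score under 700 and 48.8% at the cap, and CTCF 9.82% and 1.23%.

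Distal regions absent from the 2 h union were poorer in AP-1 and richer in CTCF matches. AP-1 matched 603 of the 2801 absent (21.5%) and 5930 of the 13658 shared (43.4%). CTCF matched 15.6% (14.3 to 17.0) and 4.96% (4.61 to 5.33). Since absent regions had lower scores and fewer summits, the shares were also taken among distal regions with 1 summit and a score under 700. There AP-1 matched 20.8% of 1332 absent and 42.3% of 2118 shared regions, and CTCF 16.4% and 7.18%. The difference was thus as large for AP-1, and smaller but in the same direction for CTCF. Promoter regions absent from the union also held CTCF matches more often, in 6.72% (4.78 to 9.39) of 461, against 154 of all 10273 promoter regions. Distal regions of the union that the 10 min list lacked had 38.5% AP-1 and 3.74% CTCF.

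Between whole lists the motif shares were closer. AP-1 matched 39.7% of distal 10 min regions and 40.3% of the union, a difference of -0.656 points (-1.59 to 0.285) that the counting interval does not separate from 0. The AP-1 share was above that at 10 min in each 2 h list, with 44.3% (43.4 to 45.3) for vehicle and 41.2% (40.6 to 41.8) for TGFβ. Among the 10000 highest-scoring distal regions AP-1 matched 43.5% at 10 min, 45.0% with vehicle and 50.9% with TGFβ. The lists hold 16459, 10833 and 27584 distal regions, respectively, so this cut keeps unlike parts of them. Motif shares changed with the score, and scores were not matched between lists. CTCF was 2.49 points higher at 10 min (2.05 to 2.95), and above each 2 h list, which had 3.71% with vehicle and 4.06% with TGFβ. Among the 10000 highest-scoring distal regions of each list, CTCF matched 4.52% at 10 min, 3.56% with vehicle and 1.73% with TGFβ, with the same limit. SMAD matches were lower at 10 min, at 34.9% against 39.9%, a difference of -5.03 points (-5.95 to -4.10). The vehicle list at 2 h had 36.2% and the TGFβ list 40.2%. Distal union regions absent at 10 min had 43.3% (42.5 to 44.1). The moved windows, with 34.4%, were taken from distal 10 min regions. No windows were moved from union regions, so these lack a background of their own.

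**Figure D5:**
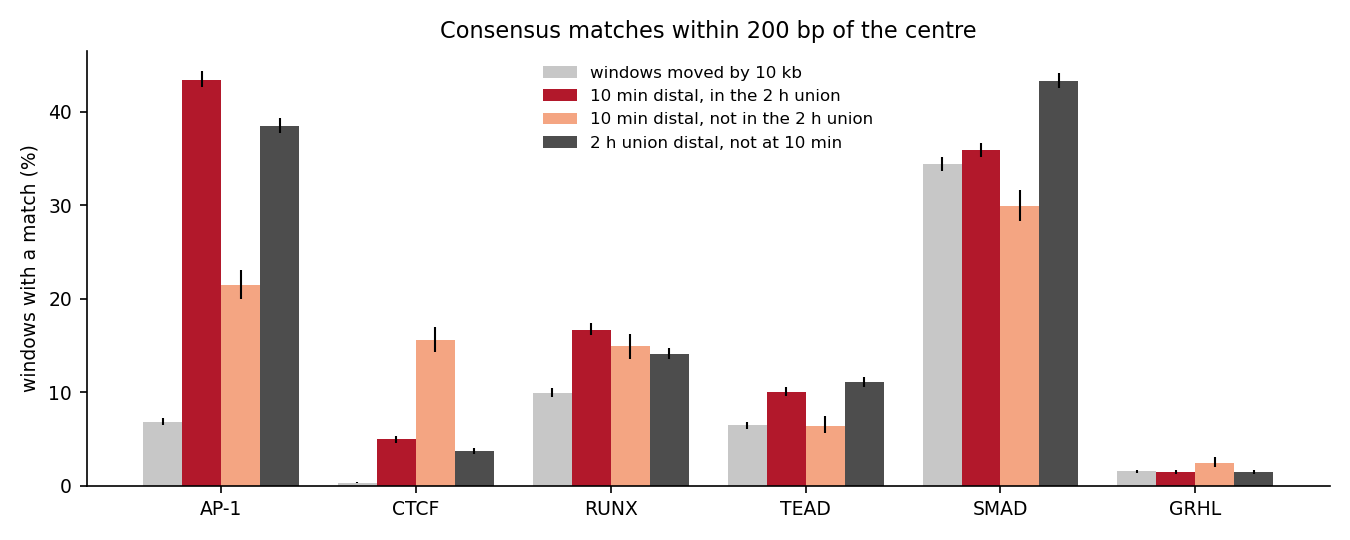
Share of windows with a consensus match within 200 bp of the centre, in percent with 95% Wilson intervals, for distal 10 min regions in the 2 h union (red), those absent from it (light red), distal union regions absent at 10 min (dark grey) and windows moved by 10 kb (light grey). CTCF reaches 15.6% in the 10 min regions absent from the union, and AP-1 43.4% in the shared ones. Windows were moved from distal 10 min regions only.

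Promoter regions held other motifs. Sites of KLF and SP factors (GGGGCGGGG) matched 22.7% of the 10273 regions at a TSS, NFY (CCAATCA or CCAATGA) 13.8%, ETS (CCGGAAGT) 8.56%, YY1 (AAGATGGCG) 4.05%, NRF1 (GCGCATGCG) 3.38% and CRE (TGACGTCA) 3.37%. In windows moved by 10 kb these shares were 1.32%, 7.87%, 0.370%, 0.263%, 0.0779% and 0.263%. Promoter windows had a mean GC content of 63.5%, and no moved windows of like GC were compared. AP-1 matched 724 of the 10273 promoter regions (7.05%) and 719 of 10266 moved windows. Compared with the union at TSSs, KLF and SP matches were 2.05 points higher at 10 min (0.951 to 3.16) and AP-1 matches were lower, with a difference of -1.88 points (-2.60 to -1.15). For ETS the difference of 0.729 points (-0.00561 to 1.47) included 0.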

How the data were processed

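ATAC-seq peak lists of 4 NMuMG samples were used, 1 per group. The authors processed reads with the ENCODE ATAC-seq pipeline, called peaks with MACS2 (2.1.2 in the submitters' processing notes) on mm9 and retained peaks by the irreproducible discovery rate (IDR) between replicates. The deposited score is their scaled IDR, with a cap of 1000. It was used to rank regions within a list. The aligner is not given in the sources used here, and no shift of reads to the Tn5 cut is stated for the peaks. What served as replicates was not settled, since the labels give 1 sample per condition.

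All intervals lay inside the mm9 chromosomes, and the NCBIM37 genome with GENCODE vM1 genes was used. Lists were refined as described in the report, and the functions were tested on simulated data. Since each condition has 1 list, conditions were not tested against each other and no p-value is given. The lists hold no read counts, and the study's read totals were not used as data. Members, gene lists, motifs and tests were chosen with earlier results of these data known. Of the gene symbols, 3 were matched through RefSeq synonyms (Tcfap2a, Tcfap2c and Sfpi1 in the annotation). Named genes were the members of a list that were not open (where 5 or fewer) or differed from the 2 h union, the 4 with the most summits, and the first by summits, width, distal regions or score outside the lists. Of these, some marker genes of other cell types, some Hox and olfactory receptor genes and a few others are not reported here. Further genes were named after their values were seen. Python 3.11.15, NumPy 2.4.6, SciPy 1.17.1 and matplotlib 3.10.9 were used. Alternatives are in the closing section.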

Additional observations from a re-analysis of the deposited data

How the results depend on the processing

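Of 36 recomputed values of 11 results, 6 stayed within the counting interval of the reported value (for the number of regions, within 1.5 times), 29 lay outside it and 1 turned its sign. Only the difference in promoter share could turn its sign, since the other results are shares, a count and a distance. The intervals are narrow, but some moves were large. With the score cut given below, the share at a TSS went from 38.4% to 62.4% and CTCF from 6.77% to 2.08%. A further 3 alternatives, counted among the 36, were chosen after seeing the data, all on the difference in promoter share. With the 2 h vehicle list in place of the union this difference was -6.44 points, with the 10 min list cut to the length of the vehicle list and set against that list 2.30, and with the TGFβ list 10.0. It was 2.34 with the union cut to equal length and 18.9 with scores at or above the median of each list. With scores at or above the median of the 10 min list, 10926 regions remained, with 62.4% at a TSS, a median distal distance of 17292 bp, 33.2% of protein-coding promoters open, 91.4% with at least 2 summits, and AP-1 and CTCF matches in 48.6% and 2.08% of distal regions. With a TSS window of 200 bp, 35.9% of regions were at a TSS, 32.0% in introns, 44.4% of promoters open and 96.7% of these open in the union. With a minimum width of 300 bp, 25.6% were in introns, the distance was 17794 bp, 44.3% of promoters were open and 86.7% had at least 2 summits. With overlapping or touching intervals merged only, 39.8% were at a TSS and 73.4% had at least 2 summits. With protein-coding TSSs only, 36.7% were at a TSS and the distance was 22092 bp. Overlap with the union was 84.1% by the centre of the region, 81.2% with at least 50% covered, 62.3% with both 2 h lists required and 75.8% with the union at equal length, where 91.9% of open promoters were shared. Within 100 bp of the centre AP-1 matched 29.3% and CTCF 5.71%. Numbers of regions depend on depth, which no alternative varied. No paired analysis was possible because each group has 1 sample and the 10 min samples share 1 list.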
